A study of Mus musculus with 6 samples.

Results

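The class I histone deacetylase genes Hdac1, Hdac2, Hdac3 and Hdac8 encode enzymes that valproic acid (VPA), an antiepileptic fatty acid, inhibits. Their transcripts were followed in mouse cells described as prostate cancer cells, with and without the drug. The genes were taken by name, with the probe set of highest mean where a gene had several. All 4 members were among the 19938 genes tested. Total RNA of 3 control and 3 VPA cultures, described as biological replicates, was read on Affymetrix mouse Gene 1.0 ST arrays. All values are log2 values made by RMA, which brings the arrays to a shared distribution, and a log2 difference of 1 is a doubling. The sources used here do not give the cell line, the dose or the length of treatment.

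The sample titles and the design text give the groups as control and VPA. Other fields of the same labels describe the control arrays as differentiated stem cells of strain 129SV and the VPA arrays as undifferentiated stem cells of strain Stra8-EGFP/Rosa26. The treatment cannot be told apart from a difference in strain or cell type if these fields hold, and every VPA minus control difference here rests on the titles. Defining markers were therefore read first. Of 11 measured markers of prostate epithelium, 9 had a mean at or below 7.16, the median of the whole table, and their mean level was 6.40 to 6.49 in the controls and 6.37 to 6.45 with VPA. Krt8 and Krt18, keratins of luminal epithelium, lay at 7.25 to 7.99 and 6.36 to 6.82, and the secretory protein gene Pbsn lay at 3.41 to 3.76. Of 8 embryonic stem cell markers, 6 were at or below that median, with Pou5f1 at 4.99 to 5.86 and Nanog at 6.08 to 6.56 over the 6 arrays. Sox2, a transcription factor of stem and neural cells, lay well above it, at 10.98 to 11.71. Differences of the 8 stem cell markers ran from -0.36 to -0.12 in the arrays labelled VPA. In limma 0 of them passed an adjusted p of 0.05, and 3 had an unadjusted p under 0.05, beside 18.1% of all genes. The germ cell gene Stra8 lay at 4.44 to 4.64. The array has no detection call in these values, and a level depends on a probe set's own probes as well as on the transcript.

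Histone deacetylases of class I remove acetyl groups from lysines of histones and other nuclear proteins with the help of a zinc ion. HDAC1 and HDAC2 are close relatives that form the catalytic core of the NuRD, Sin3, CoREST and MiDAC complexes, HDAC3 works in the NCoR corepressor complex, and HDAC8 acts without such a complex and deacetylates SMC3 of the cohesin ring. VPA binds at the catalytic site, and it has also been described to promote degradation of the HDAC2 protein. The comparison asks whether the transcripts of the drug's own targets, and of the complexes they work in, differed between treated and control cells. Protein level and enzyme activity were not measured here.

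Promoter windows were taken for 2 of the 4 members from the RefSeq table of build GRCm38.p6, and none was taken for Hdac1 and Hdac3. The search skipped the entries of 1 chromosome, so a missing window does not show that a gene has no entry. The 250 bases before the start site of Hdac2, a subunit of the complexes, and of Hdac8, the member outside them, are shown. The windows of Hdac2 and Hdac8 differ in base composition, and those of Hdac1 and Hdac3 were not read. CG dinucleotides are in capitals. The Hdac2 window is chr10:36974294-36974543 on the plus strand and the Hdac8 window is chrX:102505159-102505408 on the minus strand.
Hdac2: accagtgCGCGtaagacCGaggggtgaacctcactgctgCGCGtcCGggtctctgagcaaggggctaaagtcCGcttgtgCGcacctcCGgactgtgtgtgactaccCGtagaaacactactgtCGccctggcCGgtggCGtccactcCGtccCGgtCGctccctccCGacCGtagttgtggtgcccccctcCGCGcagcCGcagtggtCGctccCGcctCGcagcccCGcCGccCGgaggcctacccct
Hdac8: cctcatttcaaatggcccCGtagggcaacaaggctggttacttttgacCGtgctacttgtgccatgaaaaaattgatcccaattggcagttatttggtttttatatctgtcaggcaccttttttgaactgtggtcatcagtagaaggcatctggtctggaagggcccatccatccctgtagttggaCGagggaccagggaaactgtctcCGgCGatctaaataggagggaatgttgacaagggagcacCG
The Hdac2 window held 27 CG dinucleotides and 68.8% G or C, and 91.4% of 32851 promoter windows of the same length held fewer. In the Hdac8 window there were 6, the median of all windows, and 48.4% G or C. The letters GGGCGG or, on the other strand, CCGCCC, the GC box, occurred 1 time before Hdac2 and 0 times before Hdac8, and in 32.7% of all windows. CCAAT or its reverse complement ATTGG occurred 0 times before Hdac2 and 2 times before Hdac8, as overlapping matches, and in 33.8% of all windows. TATAAA or its reverse complement TTTATA occurred 0 times before Hdac2 and 1 time before Hdac8, and in 12.4% of all windows. These letters are a description of the windows, and the arrays carry no measurement of factor binding or chromatin there.

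None of the 4 members passed limma's moderated test of VPA against control at an adjusted p under 0.05, a call made for 2.34% of all genes. At an unadjusted p under 0.05 there was 1, Hdac8, against 18.1% of all genes. The differences of all 4 were positive, from 0.06 to 0.32, with a median of 0.12, beside a median of -0.035 over all genes. The plot of log2 values by array shows the 3 values of each group for each gene.

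**Figure D1:**
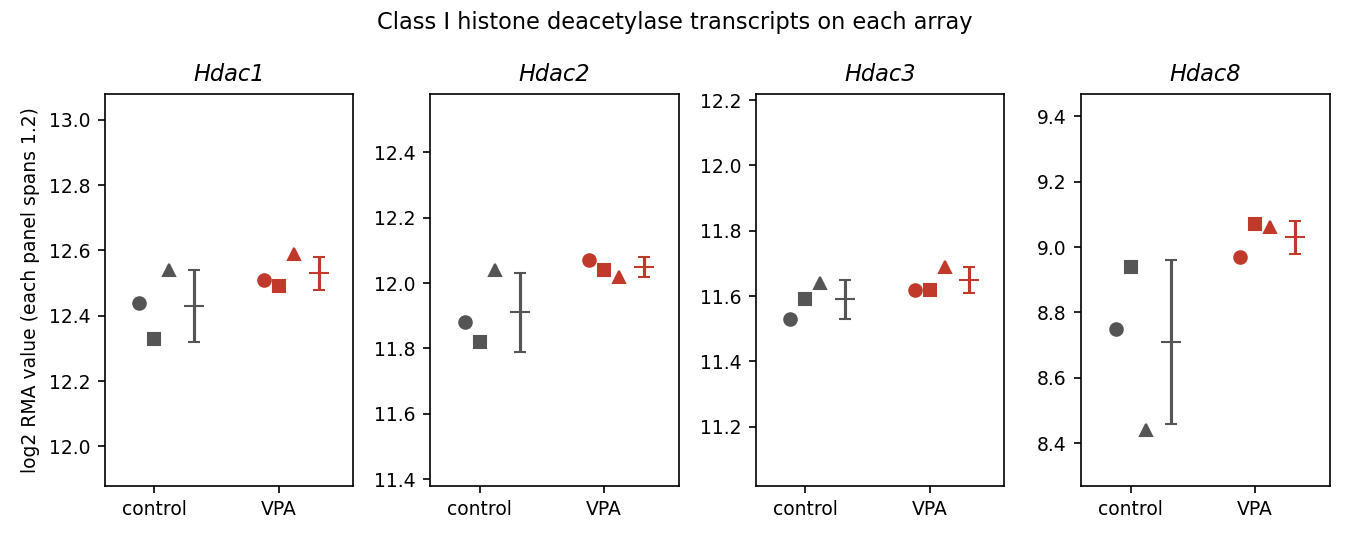
Log2 RMA values (vertical axis, each panel spanning 1.2 units at its own level) of the 4 class I deacetylase genes on the 3 control (grey) and 3 VPA (red) arrays, with circles, squares and triangles for replicates 1, 2 and 3 and the mean ± SD beside them. The groups overlap for Hdac1, Hdac2 and Hdac3, and the Hdac8 values with VPA, from 8.97 to 9.07, lie above the control values, from 8.44 to 8.94.

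Hdac1 (probe set 10516605), a catalytic subunit of most of the nuclear corepressor complexes, had log2 values of 12.44, 12.33 and 12.54 in control replicates 1, 2 and 3 and of 12.51, 12.49 and 12.59 in the VPA replicates. Control replicate 3 lay above VPA replicates 1 and 2, so the groups overlapped. The means were 12.43 ± 0.11 (SD, n = 3) and 12.53 ± 0.05 (SD, n = 3), and the difference was 0.10 (SE 0.0889, limma adjusted p = 0.591). In linear terms this was 1.07-fold, with a 95% interval from 0.932 to 1.23.

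A second probe set annotated to Hdac1 alone, 10447004, gave nearly the same values. It read 12.40, 12.32 and 12.52 in the control arrays and 12.49, 12.52 and 12.58 in the VPA arrays. On no array did the probe sets lie more than 0.04 apart, and the second differed by 0.12 between groups (SE 0.0881, limma adjusted p = 0.611 over all probe sets). RefSeq lists a pseudogene, Hdac1-ps, and the sources used here do not say where each probe set lies, so both values may hold signal of either copy.

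Hdac2 (probe set 10362520), the partner of Hdac1 in the same complexes, read 11.88, 11.82 and 12.04 in the control arrays and 12.07, 12.04 and 12.02 in the VPA arrays. The VPA values were tight and sat at the level of control replicate 3, above the other control values. Means were 11.91 ± 0.12 (SD, n = 3) and 12.05 ± 0.03 (SD, n = 3). The difference of 0.13 (SE 0.0895, limma adjusted p = 0.462), or 1.10-fold with a 95% interval from 0.954 to 1.26, did not pass.

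For Hdac3 (probe set 10458461), the enzyme of the NCoR complex, the control values were 11.53, 11.59 and 11.64 and the VPA values 11.62, 11.62 and 11.69. Control replicate 3 again lay within the VPA range. The means of 11.59 ± 0.06 (SD, n = 3) and 11.65 ± 0.04 (SD, n = 3) differed by 0.06 (SE 0.0813, limma adjusted p = 0.737), which is 1.04-fold with a 95% interval from 0.917 to 1.18. Hdac3 was the steadiest of the 4 between replicates, and 4.97% of all genes had a smaller spread within groups. That share was 22.6% for Hdac1 and 24.1% for Hdac2.

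Hdac8 (probe set 10606088), an X-linked gene, had values of 8.75, 8.94 and 8.44 in the control arrays and of 8.97, 9.07 and 9.06 in the VPA arrays. Every VPA value was above every control value, a separation that 23.1% of all genes showed in either direction. The controls were spread over 0.25 (SD) around a mean of 8.71, whereas the VPA arrays lay at 9.03 ± 0.05 (SD, n = 3). VPA minus control came to 0.32 (SE 0.124), which is 1.25-fold, and its 95% interval ran from 1.03 to 1.51. Its unadjusted p in limma was 0.0278 and its adjusted p 0.212, so it did not pass over all genes. In contrast to Hdac3, 80.2% of all genes had a smaller spread than Hdac8. Control replicate 3, the lowest Hdac8 value, was the highest control value of the other 3 members, and without it the Hdac8 difference was 0.19. Without control replicate 2, the highest Hdac8 control, it was 0.44.

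Exact two-sided permutation tests of the 6 values of each gene gave p = 0.3 for Hdac1, 0.2 for Hdac2, 0.3 for Hdac3 and 0.1 for Hdac8, and 0.1 is the smallest that 3 against 3 arrays allow. Over 15 other settings of the analysis, the sign stayed positive and no adjusted p fell under 0.05 for any of the 4 genes. Changing only the genes tested, the variance prior or the replicate block leaves the difference itself the same. The sign could not change in those settings. The lowest adjusted p over the 15 settings was 0.508 for Hdac1, 0.383 for Hdac2, 0.537 for Hdac3 and 0.0845 for Hdac8. The plot of differences with each array left out gives the values behind this.

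**Figure D2:**
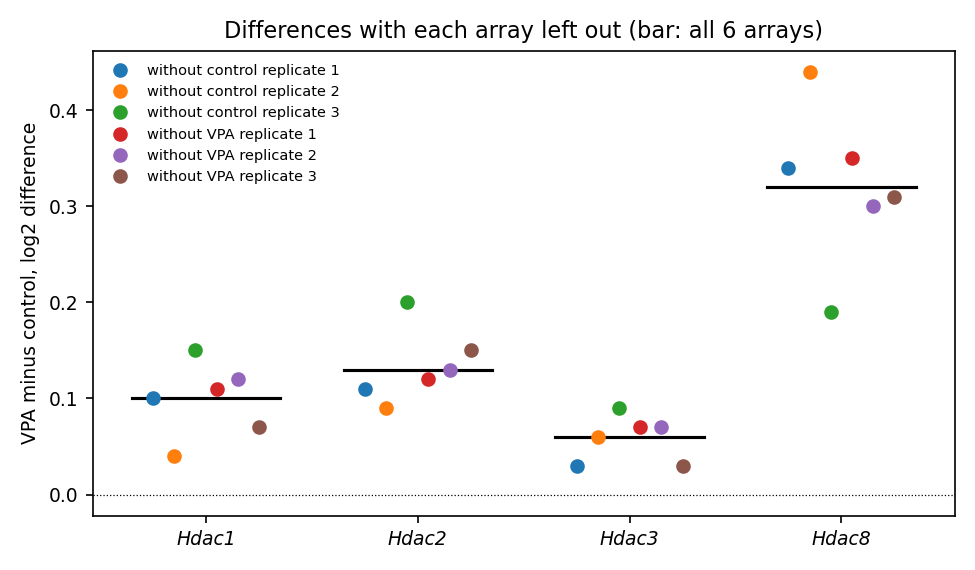
VPA minus control log2 difference (vertical axis) of each member with all 6 arrays (black bar) and with each array left out in turn (coloured points). The values run from 0.04 to 0.15 for Hdac1, 0.09 to 0.20 for Hdac2, 0.03 to 0.09 for Hdac3 and 0.19 to 0.44 for Hdac8.

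Whether the 4 genes responded unequally was tested on the log2 difference between members within each array, over 6 pairs. Hdac8 minus Hdac3 differed by 0.26 between groups (SE 0.17), with values of -2.78, -2.65 and -3.20 in the controls and -2.65, -2.55 and -2.64 with VPA. Its exact permutation p was 0.2, and 0.72 after adjustment over the 6 pairs. Against Hdac1 and Hdac2 the response of Hdac8 was larger by 0.22 (SE 0.209) and 0.19 (SE 0.218). These 3 values moved with the control arrays used and were 0.10, 0.04 and -0.01 for Hdac3, Hdac1 and Hdac2 without control replicate 3, and 0.38, 0.39 and 0.35 without control replicate 2. Hdac2 and Hdac1 differed in response by 0.04 (SE 0.0492), and Hdac3 lay below Hdac1 by -0.04 (SE 0.0559) and below Hdac2 by -0.07 (SE 0.0636). No pair passed, with 0 at an unadjusted exact p under 0.05, which this design cannot reach, and the groups overlapped in all 6 pairs.

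Over the 6 arrays Hdac1, Hdac2 and Hdac3 varied in part together, which normalization and array effects common to all genes can also produce. Control and VPA arrays were pooled, so the positive differences of these genes also enter r, and their part was not tested. Pearson's r was 0.84 for Hdac1 with Hdac2 (exact permutation p = 0.0306, adjusted over 3 pairs 0.0918), with a Spearman's rho of 0.49 (exact permutation p = 0.356, adjusted 0.419). Hdac1 and Hdac3 gave r = 0.72 (exact permutation p = 0.112, adjusted 0.168) and rho = 0.94 (exact permutation p = 0.0167, adjusted 0.0501). For Hdac2 and Hdac3 these were r = 0.66 (exact permutation p = 0.172, adjusted 0.172) and rho = 0.43 (exact permutation p = 0.419, adjusted 0.419). Leaving out the 2 arrays farthest from the median of the first gene gave r of 0.88, 0.95 and -0.85. These values rest on few arrays, and the sign for Hdac2 with Hdac3 depended on the arrays left out. Hdac8, whose groups did not overlap (highest control 8.94, lowest VPA value 8.97), was left out, so these relations do not cover it. Its control replicate 3 was its lowest value, but the highest control value of Hdac1, Hdac2 and Hdac3.

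The genes most like each member were found by Pearson's r over the 6 arrays among named genes whose SD over the arrays was at least 0.1. For Hdac1 these were Rab3c (r = 0.967), Dusp9 (0.964) and Kpna3 (0.962), and 6 of 12576 genes had an r over 0.95. For Hdac2 they were Ccnyl1 (r = 0.988), Hells, a chromatin remodelling ATPase (0.987), and Ercc6l, a mitotic ATPase (0.977), with 14 genes over 0.95. Hdac3 was followed most closely by Zfp658 (r = 0.973), Pde6d (0.970) and Sap30, a subunit of the Sin3 complex (0.970), also with 14 genes over 0.95. Nearest to Hdac8 were Mbip (r = 0.998), the deacetylase gene Sirt7 (0.995) and Rorb, a nuclear receptor gene (0.994), with 38 genes over 0.95. Mbip read 7.82, 8.0 and 7.56 in the controls and 7.99, 8.11 and 8.10 with VPA, with control replicate 3 lowest and VPA replicate 2 highest as for Hdac8. With 6 arrays and 12576 genes compared, such values describe these arrays only.

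In the complexes that hold these enzymes, 1 of 45 measured subunits changed, and it fell, a share close to the 2.34% called over all genes. This was Chd3 (probe set 10387316), an ATP-dependent remodelling subunit of NuRD. Its log2 values were 10.89, 10.86 and 10.68 in the control arrays and 10.02, 10.14 and 10.24 in the VPA arrays. All 3 VPA values lay well below the controls. Chd3 fell by 0.68 on the log2 scale (SE 0.0975, limma adjusted p = 0.0139), to 0.626 of the control level with a 95% interval from 0.538 to 0.728. The call ended without control replicate 1 (adjusted p = 0.0703), VPA replicate 1 (0.058) or VPA replicate 2 (0.0608), with differences from -0.62 to -0.74 over all settings. Testing all 35556 probe sets (0.131) or leaving variances unmoderated (0.214) ended it too.

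Among the other NuRD genes none passed. Chd4, the alternative remodelling ATPase of that complex, read 11.86, 11.91 and 11.72 against 12.03, 11.92 and 11.79 and differed by 0.08 (SE 0.0965, limma adjusted p = 0.683), and Chd5 differed by 0.00. Mbd3, a methyl-CpG-binding domain subunit, differed by -0.38 (SE 0.147, adjusted p = 0.213), with VPA replicate 3, at 10.01, level with control replicates 2 and 3. Mta2, a scaffold that binds HDAC1 and HDAC2, differed by -0.18 (adjusted p = 0.285), and the histone chaperones Rbbp4 and Rbbp7 by -0.17 and -0.22 (adjusted p = 0.421 and 0.355). The median of the 13 NuRD genes was -0.11, and 2 of them, Chd3 and Mbd3, were lower at an unadjusted p under 0.05.

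Of 16 measured Sin3 subunits none passed over all genes. Differences were positive in 13, the median was 0.14, and at an unadjusted p under 0.05 there were 5 with higher and 0 with lower values, beside 18.1% of all genes in either direction. Sin3a, the scaffold, read 10.17, 10.19 and 10.01 in the controls and 10.50, 10.38 and 10.43 with VPA, a difference of 0.31 (SE 0.0881, limma adjusted p = 0.103). Arid4b, a DNA-binding subunit, differed by 0.28 (SE 0.0845, adjusted p = 0.128). The groups did not overlap for either gene, and in 7 of the 16 genes in all, beside 23.1% of all genes. Sap30, named above for its likeness to Hdac3, differed by 0.23 (adjusted p = 0.306).

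No gene of the remaining complexes passed. Of 9 CoREST genes, Zmym2, a zinc finger subunit, and the histone demethylase gene Kdm1a differed by 0.22 and 0.18 (limma adjusted p = 0.253 and 0.26), and the list's median was 0.07. The MiDAC scaffold genes Dnttip1 and Mideas were at -0.12 and -0.13 (adjusted p = 0.509 and 0.511), with a median of -0.12 over 4 genes. Of the NCoR complex 3 genes were measured. Tbl1xr1, its exchange factor, read 10.78, 10.90 and 10.83 against 10.60, 10.63 and 10.47 and differed by -0.27 (SE 0.0863, adjusted p = 0.139), and the related Tbl1x differed by -0.04 (adjusted p = 0.875). Over the 45 subunits of the 5 complexes, 10 had an unadjusted p under 0.05, which is 22.2% beside 18.1% of all genes, and in 13 the groups did not overlap, beside 23.1% of all genes. The median difference was 0.03.

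**Figure D3:**
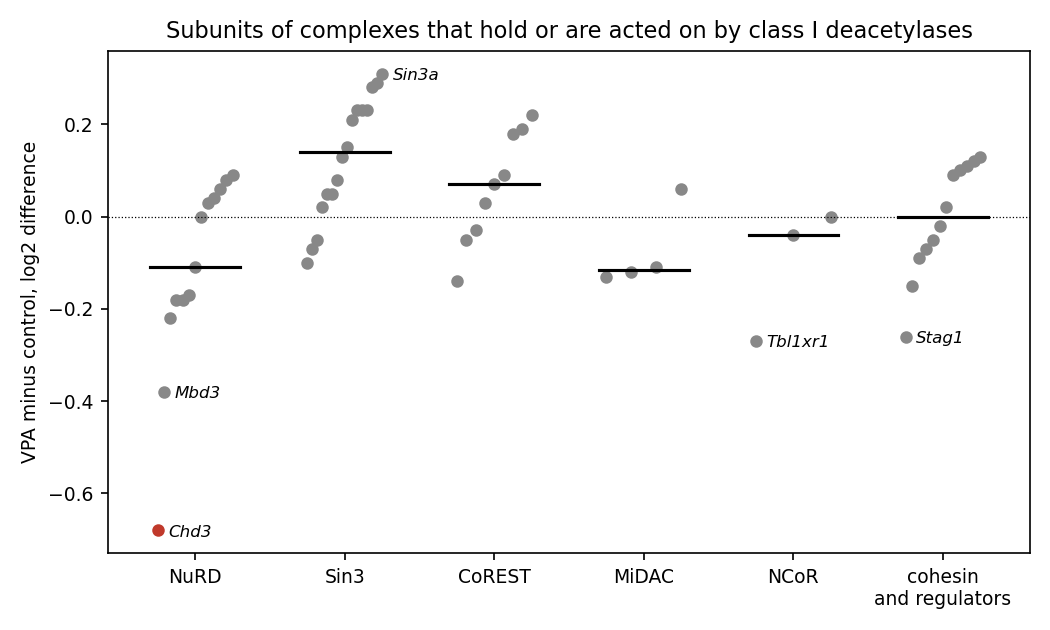
VPA minus control log2 difference (vertical axis) of each measured subunit of 5 class I deacetylase complexes and of cohesin with its regulators, a red point marking an adjusted p under 0.05 and a black bar the median of each list. Chd3, at -0.68, is the red point, and the medians run from -0.12 for MiDAC to 0.14 for Sin3.

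Cohesin, the ring that holds sister chromatids together and whose SMC3 subunit HDAC8 deacetylates, had 12 measured genes with its regulators, and none passed. Smc3 itself read 11.49, 11.52 and 11.61 against 11.70, 11.66 and 11.52, a difference of 0.09 (SE 0.0881, limma adjusted p = 0.634). Esco1 and Esco2, which place the acetyl group that HDAC8 removes, differed by 0.02 and 0.11. Stag1 and Rad21, structural subunits, were at -0.26 (SE 0.084, adjusted p = 0.145) and -0.15 (adjusted p = 0.387), and the median of the list was 0.00.

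Of 8 measured genes whose products modify class I deacetylases, none passed. Rlim and Ube2l6, a ubiquitin ligase and a conjugating enzyme linked to degradation of HDAC2, differed by 0.11 and 0.02 (limma adjusted p = 0.575 and 0.938). Huwe1, another ligase of HDAC2, differed by -0.05. Csnk2a1, a catalytic subunit of the kinase CK2 that phosphorylates HDAC1 and HDAC2, was at 0.19 (adjusted p = 0.389), and Ppp4r1, a regulatory subunit of protein phosphatase 4, at -0.26 (SE 0.0895, adjusted p = 0.17).

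The other deacetylases gave no call either. Of 7 genes of classes II and IV, 0 passed limma's test. Before adjustment 1 had a p under 0.05 (14.3%), beside 18.1% of all genes. That was Hdac10, a polyamine deacetylase, at -0.27 (SE 0.11, adjusted p = 0.238). Hdac4 was at 0.27 (SE 0.125, adjusted p = 0.3). Of 7 sirtuins, which use NAD and are not inhibited by VPA, 0 passed. With an unadjusted p under 0.05, beside 18.1% of all genes, there was 1 (14.3%), Sirt2. It read 10.57, 10.67 and 10.60 in the controls and 11.00, 10.95 and 10.83 with VPA, a difference of 0.31 (SE 0.0858, adjusted p = 0.0966). Sirt7, the closest sirtuin to Hdac8 in pattern, differed by 0.16 (adjusted p = 0.4). The medians of -0.09 and 0.01 for these lists lie beside 0.12 for class I, and the difference between classes was not tested.

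**Figure D4:**
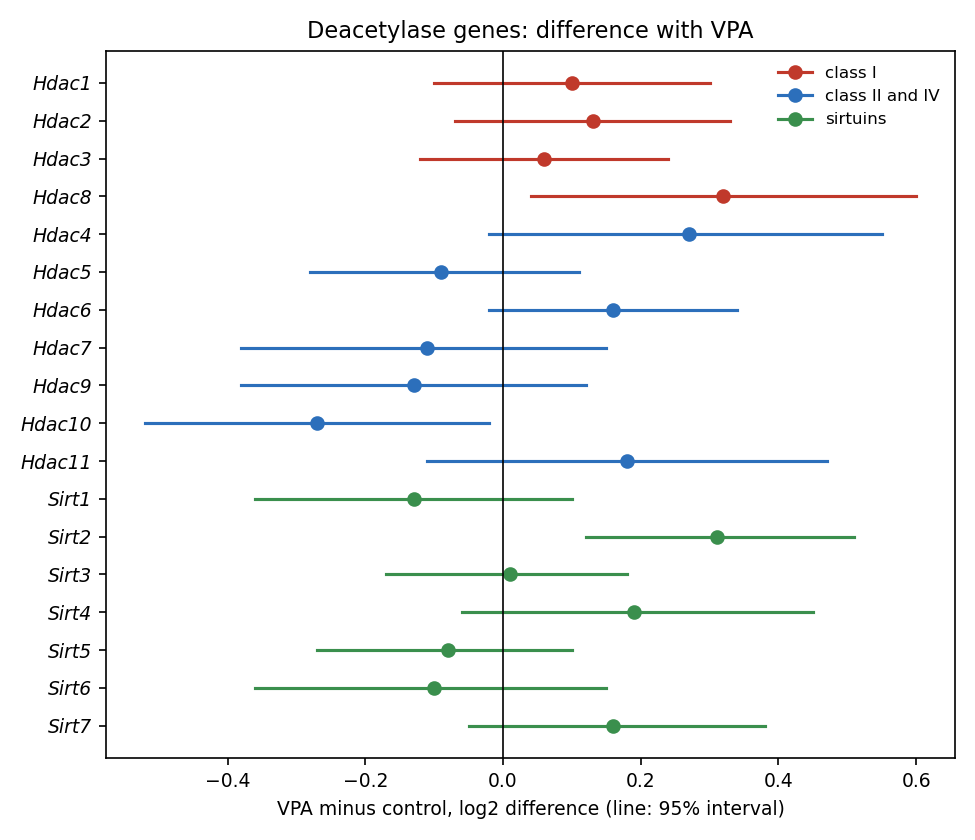
VPA minus control log2 difference (horizontal axis) with its 95% interval from limma for 4 class I (red) and 7 class II and IV (blue) deacetylase genes and 7 sirtuins (green). The intervals of Hdac8, from 0.04 to 0.60, Hdac10, from -0.52 to -0.02, and Sirt2, from 0.12 to 0.51, leave out 0 before adjustment over all genes.

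None of the enzymes that add the acetyl groups, or of the readers that bind them, passed. Of 10 acetyltransferase genes, 8 had negative differences, the median was -0.17 and 5, all with negative differences, had an unadjusted p under 0.05, beside 18.1% of all genes. Kat2b, a coactivator acetyltransferase, read 9.63, 9.85 and 9.79 with VPA, below all controls (mean 10.11 ± 0.10, SD, n = 3), and differed by -0.35 (SE 0.0955, limma adjusted p = 0.0949), and Kat7 differed by -0.23 (adjusted p = 0.178). The bromodomain genes Brd2, Brd3 and Brdt were at -0.30 (SE 0.0968, adjusted p = 0.143), -0.05 (adjusted p = 0.786) and 0.07 (adjusted p = 0.707).

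Genes known to respond when class I enzymes are inhibited were read in the same arrays. Of 6 measured, Ccnd2, the D-type cyclin named in the title of the series, rose by 1.34 on the log2 scale (SE 0.212, limma adjusted p = 0.0175), and 5 did not pass. The list was chosen with that title and earlier results of these data known. The rise of Ccnd2 is therefore no independent sign that the enzymes were inhibited. Ccnd2 passed in 9 of 15 other settings. Its adjusted p was 0.0719 or 0.0682 when control replicate 1 or 3 was dropped, 0.058 or 0.0608 when VPA replicate 1 or 2 was, 0.151 over all probe sets and 0.253 with unmoderated variances. Gsn, an actin-severing protein induced by deacetylase inhibitors, read 9.70, 10.14 and 9.71 in the controls and 10.34, 10.39 and 10.33 with VPA, a difference of 0.50 (SE 0.122, adjusted p = 0.0679). Txnip, an inhibitor of thioredoxin, was at 0.59 (adjusted p = 0.166), while Tgfbr2 was at -0.13 (adjusted p = 0.455). The median of the 6, Ccnd2 included, was 0.39. Cdkn1a and H1f0, also on this list, were not analysed here because no probe set carried their symbol alone.

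Over all genes 467 were called, 341 higher and 126 lower with VPA, and this background moved with the arrays used. Leaving out control replicate 1 gave 20 and control replicate 3 gave 71, while 66, 72 and 815 were called when VPA replicate 1, 2 or 3 was dropped. Control replicate 2 and VPA replicate 3 lay nearest to the other group, with a mean correlation to it of 0.994 and 0.9946 beside 0.9907 to 0.992 for the others. Of the neuroendocrine markers Chga, Syp and Ncam1, Syp rose by 0.90 (SE 0.191, limma adjusted p = 0.0456), whereas Chga differed by -0.05 and Ncam1 by 0.25 (adjusted p = 0.847 and 0.253). The mean level of the 3 was 8.63 to 8.72 in the controls and 8.94 to 9.25 with VPA. Syp kept its call in 8 of these 15 settings, and of the arrays left out singly it did so only without VPA replicate 3. Leukocyte markers lay at a mean of 6.54 to 6.70 and 6.46 to 6.66, and endothelial markers at 6.82 to 7.14 and 6.91 to 7.16. Fibroblast and muscle markers lay at a mean of 9.15 to 9.21 and 8.98 to 9.13, with Acta2, smooth muscle actin, at 12.60 to 13.55. Of these 6 genes none passed limma's test. An unadjusted p under 0.05 was seen for 2, Col3a1 at -0.46 and Pdgfrb at -0.36, beside 18.1% of all genes. Col1a1, Col1a2 and Des were at 0.20, 0.21 and 0.14. The part of these marker differences in the values above was not tested, and in bulk RNA fewer cells of a type cannot be told apart from less transcript per cell.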

How the data were processed

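Biotin-labelled RNA (300 ng of total RNA per sample) was hybridised to Affymetrix mouse Gene 1.0 ST arrays, per the labels' protocols. The authors deposited log2 values, and the submitters' processing notes name RMA and Affymetrix Expression Console. The sources used here give neither versions nor a genome build. The values were used unchanged. A shift common to most transcripts would not show after RMA. Of 35556 probe sets, 21789 carried exactly 1 symbol in the platform annotation, 1621 several, and 12146 were absent from it. Symbols were updated by Entrez identifier through RefSeq (GRCm38.p6), which matched 21698. The probe set with the highest mean stood for each gene.

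VPA was compared with control in R 4.3.3 with limma 3.58.1 (lmFit, eBayes). The model held the group alone, tests were two-sided, and p-values were adjusted by Benjamini-Hochberg over 19938 genes. The prior had 5.49 degrees of freedom and the median SE was 0.101, set by 3 arrays per group. The fit was tested on simulated data. Members and gene lists were chosen with earlier results of these data known. Genes named are the 4 members, up to 3 changed genes of each list in each direction or, where none changed, the 2 with the smallest p, and for each member the 3 genes of highest correlation. The markers Krt8, Krt18, Pou5f1 and Nanog were to be named in any case. Chd4, Chd5, Mbd3, Mta2, Rbbp4, Rbbp7, Sap30, Smc3, Esco1, Esco2, Rlim, Ube2l6, Huwe1, Gsn, Txnip, Tgfbr2, Pbsn, Sox2, Stra8, Acta2, Brd3, Chga, Ncam1, Col3a1, Pdgfrb, Col1a1, Col1a2, Des and Syp were named after their values were seen. Of 145 list entries 136 matched a tested gene. The alternatives were other choices of probe sets, a filter on low values, a second normalization, median centring, other variance priors, array weights, a replicate block and leaving out each array.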

Additional observations from a re-analysis of the deposited data

How the results depend on the processing

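For Hdac1, Hdac2, Hdac3 and Hdac8 the sign and the lack of a call held in all 16 alternatives. Some of these leave the difference itself the same and could not change its sign. The added alternative, chosen after seeing the data, left out control replicate 2 and VPA replicate 3 together. The count of 467 changed genes was 714 with array weights, 1349 without those 2 arrays, 2 with every probe set tested (4372 at an unadjusted p under 0.05 in limma) and 0 with variances not moderated by limma (2898 at an unadjusted p under 0.05). Leaving out each array gave 20 to 815. The count of 1 among complex subunits was 0 with every probe set tested (6 at an unadjusted p under 0.05) and 0 without moderation in limma (7 at an unadjusted p under 0.05), and 0 to 1 with each array left out. With the replicate number as a block 1199 genes were called and none of the 4 members, while Kat2b gained a call (-0.35, adjusted p = 0.0404). Same-numbered deviations correlated at 0.08, 0.45 and 0.28, and differently numbered ones at -0.43 to 0.2. Control replicates 2 and 3 correlated best with the VPA replicate of their own number, while control replicate 1 did so with VPA replicate 3 (0.2). No protocol states a model, so the group alone was kept as the main one. Whether the numbers mark pairs was not settled. Some small differences changed sign. Tbl1x ran from -0.09 to 0.05 with each array left out and was 0.13 without both arrays. Hdac3 minus Hdac1 ran from -0.07 to 0.02 and was 0.02 without both, and Hdac8 minus Hdac2 ran from -0.01 to 0.35. The cause of these shifts was not tested. Low values have no detection call.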
